A study of Rattus norvegicus with 4 samples.

Results

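The interleukin 6 family and its STAT3 branch are described here by 10 genes, chosen by symbol: the ligand genes Il6, Il11, Lif and Osm, the receptor chain genes Osmr, Il6r, Il6st and Il11ra1, the transcription factor gene Stat3 and the inhibitor gene Socs3. All 10 were found, out of 22050 genes listed for each library. They were compared between whole lungs of SD rats (the strain name as labelled) that had received 1 intratracheal dose of bleomycin, at 5 mg/kg in 0.2 mL, and lungs of rats given the same volume of saline, all collected on day 28. Bleomycin is a DNA-breaking antitumour antibiotic used to produce lung fibrosis in rodents. There were 2 libraries per group, each from a separate rat per the labels, and no age or sex is stated for the rats.

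Cytokines of this family bind a ligand-specific receptor chain and then the shared signalling chain gp130, the product of Il6st. Janus kinases attached to these chains phosphorylate STAT3, which moves to the nucleus and switches on genes that include its own inhibitor, Socs3. In injured lung the family is known for acting on epithelial cells, macrophages and fibroblasts.

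Total counts over genes lay between 34683699 and 44381111 per library, so 3 counts correspond to 0.0676 to 0.0865 CPM (a gene's counts scaled to a common library size, and elsewhere also by TMM factors). The lung markers Sftpc, Ager and Scgb1a1 were abundant in every library, at least 711 FPKM each (counts scaled to library size and gene length). The summed level of 5 heart muscle markers was uneven among the controls, at 175.5 and 36.6 CPM in replicates 1 and 2, and 113.4 and 63.9 CPM in bleomycin replicates 1 and 2. Among all called genes, 80.5% lay farther from the control mean in bleomycin replicate 1 than in replicate 2. Values are mean ± SD over n = 2 libraries unless an SE is named, log2 fold changes are bleomycin over control, and p-values come from the quasi-likelihood test of edgeR, with Benjamini-Hochberg adjusted values taken over 15709 tested genes. An adjusted p under 0.05 is a call.

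In bleomycin-treated lungs 3 of the 4 ligand genes and the oncostatin M receptor gene Osmr rose, the ligand-binding receptor genes Il6r and Il11ra1 fell slightly, and Il6st, Stat3, Socs3 and Il11 did not pass the test. Of the 10 members 4 were called higher and 2 lower, where 9.27% of all tested genes were called higher and 7.44% lower, or 16.7% in either direction. Both bleomycin libraries lay on one side of both controls for all 10 members, 8 above and 2 below, where this was so for 68.5% of all tested genes, 35.1% above and 33.4% below. The median log2 change was 0.66 over the members and 0.01 over all tested genes. Il6 and Il11 passed the filter on low counts (0.242 CPM in 2 libraries) only through the bleomycin libraries, where they were higher. The other 8 members passed it in both groups. The members were also chosen with earlier results of these data known, so these counts and the median are a description. Because the RNA came from whole lung, more cells of a type and more RNA per cell cannot be told apart in any of these values.

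**Figure D1:**
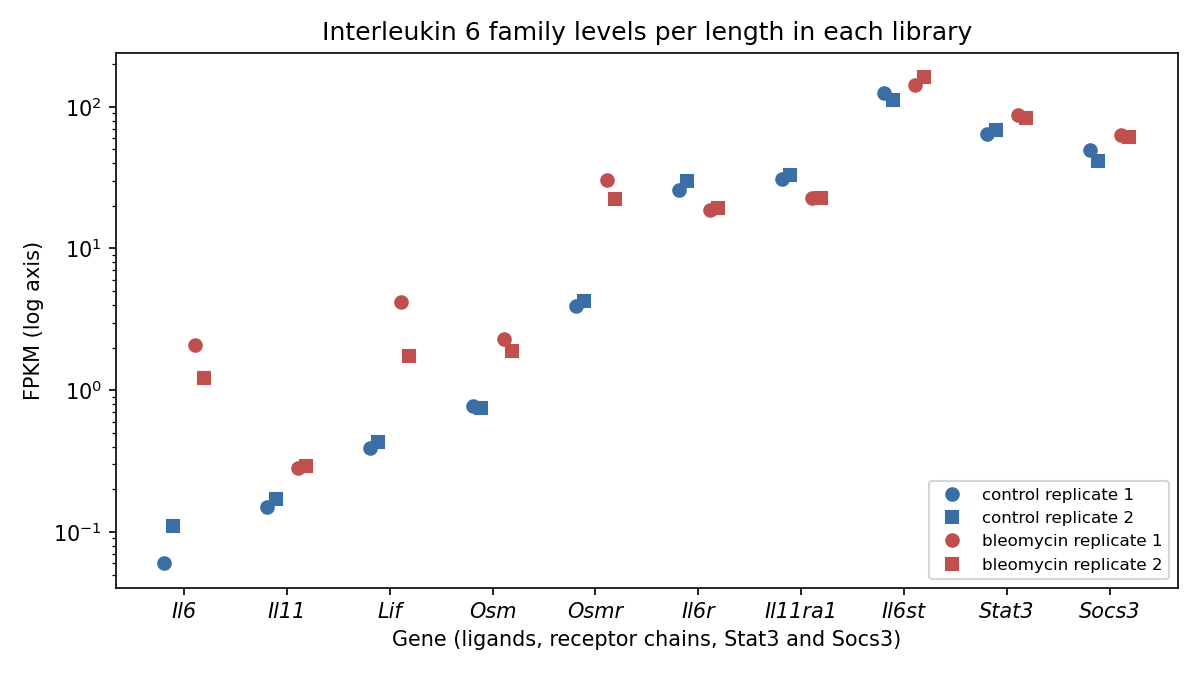
Level of each family member per gene length (FPKM, log axis) in the 4 libraries, with controls in blue, bleomycin in red, circles for replicate 1 and squares for replicate 2. Il6 moved from 0.06 and 0.11 to 2.10 and 1.21 FPKM and Osmr from 3.92 and 4.27 to 30.36 and 22.38 FPKM, while Il6st, Stat3 and Socs3 were above 40 FPKM in every library.

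Il6 (ENSRNOG00000010278) encodes interleukin 6, the cytokine that drives the acute-phase response. It had 2 and 5 counts in control replicates 1 and 2 against 86 and 56 counts in bleomycin replicates 1 and 2. In CPM these were 0.0579 and 0.115 against 2.18 and 1.27. Il6 was thus near the floor of detection in the controls and clearly above it in both treated lungs, where the lower library held 11.1 times the level of the higher control. The fitted change was 4.28 ± 0.64 (SE) on the log2 scale, a 19.5-fold rise (edgeR adjusted p = 0.0203). Both controls were below the filter on low counts, so Il6 entered the test only because it was high in the treated lungs, and its p does not allow for that. The 7 control counts also limit the fold. An exact 95% interval for the ratio of pooled counts ran from 8.98 to 48.1 and covers counting error only. With 1 library left out the fitted rise ran from 14.3-fold (without bleomycin replicate 1) to 29.8-fold (without control replicate 2).

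The 250 bases before the Il6 start site are shown because Il6 had the largest fitted fold among the 10 members. They come from RefSeq on the GRCr8 build (chr4:5894576-5894825, minus strand), which is not the build of the count files. Capitals mark the cyclic AMP response element TGACGTCA. It was searched on both strands, as were TGANTCA and TTCNNNGAA, which this window does not hold.
Il6 promoter: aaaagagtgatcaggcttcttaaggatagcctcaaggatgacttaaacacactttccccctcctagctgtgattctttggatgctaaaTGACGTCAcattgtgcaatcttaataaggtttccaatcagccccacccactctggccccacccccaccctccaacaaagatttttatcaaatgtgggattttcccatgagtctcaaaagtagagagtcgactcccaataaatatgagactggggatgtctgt
Its first base lay 162 bases before the start site. Of 33469 rat promoter windows of the same length, 1.59% held TGACGTCA. A match of letters is a description of the sequence and shows no binding.

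Lif (ENSRNOG00000007002) encodes leukemia inhibitory factor, which signals through a pair of LIFR and gp130. It had 30 and 42 counts in the controls and 364 and 171 counts in bleomycin replicates 1 and 2, or 0.869 and 0.962 against 9.22 and 3.88 CPM. The controls were close together, whereas bleomycin replicate 1 held 2.38 times the level of replicate 2. The fitted change was 2.83 ± 0.49 (SE) on the log2 scale, a 7.14-fold rise (edgeR adjusted p = 0.0268). Without bleomycin replicate 1 it was 4.22-fold.

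Osm (ENSRNOG00000024390) encodes oncostatin M, made mainly by macrophages, neutrophils and T cells. It had 74 and 90 counts in the controls and 250 and 231 in the bleomycin libraries, or 2.14 and 2.06 against 6.33 and 5.24 CPM. Replicates of each group were close, and the groups were well apart. Osm rose 2.75-fold, by 1.46 ± 0.24 (SE) on the log2 scale (edgeR adjusted p = 0.0245).

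Beside these ligands, 5 of 8 macrophage markers were called higher and none lower, where 9.27% of all tested genes were called higher and 7.44% lower. The summed level of all 8 was 1095 and 1216 CPM in the controls and 3324 and 2915 CPM in the bleomycin libraries. Marco, Mrc1 and Adgre1 were not called, and Marco and Adgre1 overlapped between the groups. Of 4 tested neutrophil markers edgeR called none, 1 had an unadjusted p under 0.05 and DESeq2 called 1. The summed level of all 6 listed neutrophil markers was 169 and 117 against 77.3 and 103 CPM, and Mpo and Elane had between 0 and 11 counts in every library. Of 6 fibroblast markers 4 were called higher, and the sum of all 6 was 2794 and 2804 against 14860 and 7487 CPM. Collagen genes made up most of it, with Col1a1 at 5168 and Col3a1 at 7470 CPM in bleomycin replicate 1. Pdgfra and Dcn overlapped between the groups and were not called (edgeR adjusted p = 0.798 and 0.471). Single markers were named after their values were seen. Like Lif, the macrophage and fibroblast sums were higher in bleomycin replicate 1 than in replicate 2. Since 80.5% of all called genes lay farther from the control mean in replicate 1, this order is not particular to these markers. No marker of the 3 lists was at 0 in all libraries. The part of these markers in the ligand values was not tested.

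Il11 (ENSRNOG00000017386), the gene of interleukin 11, a cytokine studied as a driver of fibroblast activation, had few counts in every library: 7 and 10 in the controls, 15 and 18 in the bleomycin libraries. In CPM these were 0.203 and 0.229 against 0.38 and 0.408. The treated libraries were the higher ones, but the change of 0.87 ± 0.59 (SE) on the log2 scale did not pass (edgeR adjusted p = 0.344). The exact 95% interval for the ratio of pooled counts, from 0.983 to 3.48, covers counting error only and includes no change as well as a change above that of Osm, so both lie within the counting error at this depth.

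**Figure D2:**
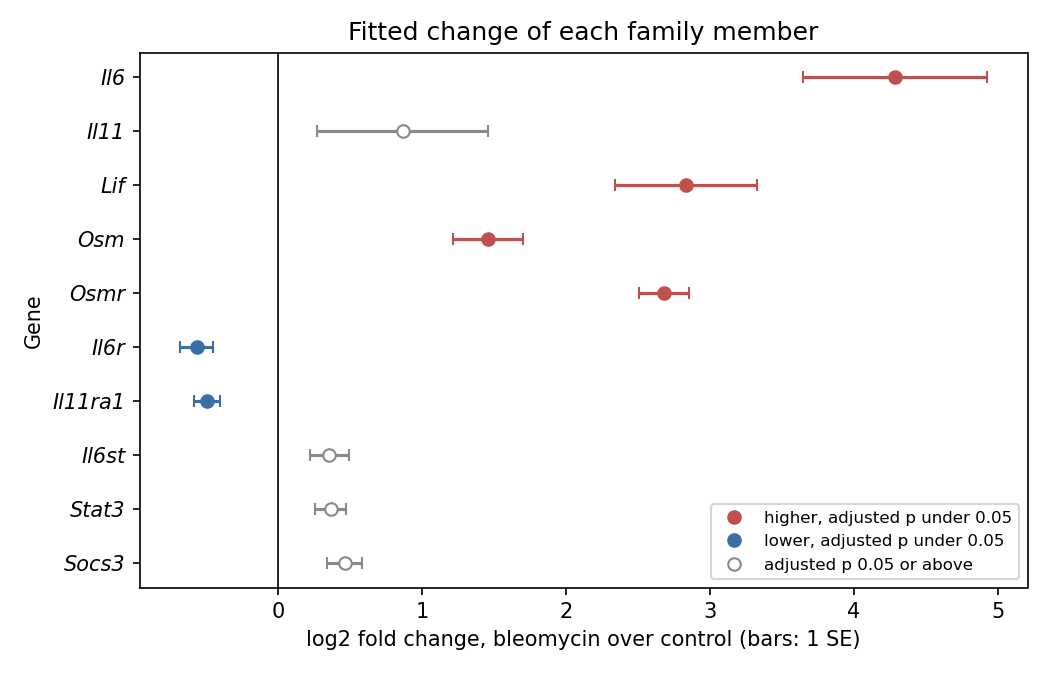
Fitted log2 fold change of each member, bleomycin over control, with bars of 1 SE; filled points passed at an adjusted p under 0.05 and open points did not. Il6, Lif, Osm and Osmr lie to the right between 1.46 and 4.28, Il6r and Il11ra1 to the left at -0.56 and -0.49, and the 4 open points between 0.35 and 0.87.

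Osmr (ENSRNOG00000033192) encodes the chain that pairs with gp130 to receive oncostatin M. It had 393 and 537 counts in the controls and 3435 and 2869 counts in the bleomycin libraries, or 11.4 and 12.3 against 87.01 and 65.1 CPM. Both treated lungs held more than 5 times the level of either control. Osmr rose 6.42-fold, by 2.68 ± 0.17 (SE) on the log2 scale, with an edgeR adjusted p of 0.00961. By p-value it stood at rank 21 of the 15709 tested genes.

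The 250 bases before the Osmr start site (RefSeq, GRCr8, chr2:57688562-57688811, minus strand) are shown because Osmr had the smallest p-value of the members. Capitals mark TGATTCA, found 33 bases before the start site. It matches TGANTCA, a loose form of the AP-1 element in which N is any base, so the stretch is AP-1-like only.
Osmr promoter: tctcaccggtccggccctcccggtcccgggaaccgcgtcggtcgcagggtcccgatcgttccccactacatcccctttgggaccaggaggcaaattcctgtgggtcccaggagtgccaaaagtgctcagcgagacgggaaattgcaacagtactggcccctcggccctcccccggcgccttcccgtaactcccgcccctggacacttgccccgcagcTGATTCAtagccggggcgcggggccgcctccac
TGANTCA was present in 6.34% of all windows. Windows were at hand for 7 of the 10 members, and among them it was also in that of Il11. The STAT element TTCNNNGAA was in none of the 7, against 7.67% of all windows. No match says only that these letters are not in the window.

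Il6r (ENSRNOG00000020811) encodes the interleukin 6 binding chain, which hepatocytes and leukocytes carry and which can be shed in soluble form. It had 119.4 and 137.9 CPM in the controls against 85.1 and 88.8 CPM in the bleomycin libraries. Both treated lungs were below both controls by a modest margin. Il6r fell 1.48-fold, by 0.56 ± 0.12 (SE) on the log2 scale (edgeR adjusted p = 0.0355), a call that was lost when bleomycin replicate 1 was left out (edgeR adjusted p = 0.0521). In RefSeq Il6r overlaps She, which itself fell by 1.11 on the log2 scale, from 2855 and 3028 to 1281 and 1675 counts. No strand-marking step is described for these libraries, so reads of both genes could not be told apart where they overlap, and the level of Il6r is uncertain to that extent.

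Il11ra1 (ENSRNOG00000015068), the gene of the interleukin 11 binding chain, had 52.98 and 55.96 CPM in the controls and 38.4 and 38.9 CPM in the bleomycin libraries. Replicates were close together, and the groups were apart. It fell 1.41-fold, by 0.49 ± 0.09 (SE) on the log2 scale (edgeR adjusted p = 0.0304). It overlaps Ccl27, which had between 18 and 39 counts in every library. Il11ra1 had at least 1517.

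Il6st (ENSRNOG00000013963), which encodes gp130, was the most abundant member in every library per length. It had 392 and 346 CPM in the controls and 437 and 506 CPM in the bleomycin libraries. The groups did not overlap, but the gap from the higher control to the lower bleomycin library was smaller than the spread within either pair. Its log2 change of 0.35 ± 0.14 (SE) did not pass (edgeR adjusted p = 0.131).

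Lifr and Cntfr, which encode other receptor chains of the family, moved in the direction opposite to Osmr. Lifr, which encodes the receptor of leukemia inhibitory factor and also pairs with gp130, had 517 and 548 CPM in the controls and 114.5 and 183.1 CPM in the bleomycin libraries. All treated values were far below all control values. Lifr fell 3.58-fold, by 1.84 ± 0.24 (SE) on the log2 scale (edgeR adjusted p = 0.0176). Cntfr, the binding chain gene for ciliary neurotrophic factor, fell 3.82-fold from 8.44 ± 2.35 to 2.21 ± 0.14 CPM. Of the 5 tested genes in the list of other receptors and shedding proteases these 2 fell and none rose. Adam17, whose product sheds the interleukin 6 receptor, was at 181.1 ± 7.2 against 221 ± 28.6 CPM (edgeR adjusted p = 0.178).

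Alongside Lifr, all 4 alveolar type 1 markers and 2 of 3 tested endothelial markers were called lower and none higher. Of all tested genes 7.44% were called lower. The type 1 markers summed to 3609 and 4009 CPM in the controls and 1268 and 1834 CPM in the bleomycin libraries, and the endothelial markers to 3612 and 3093 against 1272 and 1685 CPM. The 2 airway markers found were also called lower. They summed to 9547 and 10170 CPM in the controls and 1772 and 2187 CPM in the bleomycin libraries. Of 4 alveolar type 2 markers edgeR called none. Their sum was 27240 and 27570 CPM in the controls and 15770 and 26110 CPM in bleomycin replicates 1 and 2. No marker of these lists was at 0 in all libraries. As with Lifr, bleomycin replicate 1 held the lower sum in each list. Since 80.5% of all called genes lay farther from the control mean in replicate 1, this order is not particular to these cells. The part of these cells in the Lifr value was not tested.

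Per length, the balance of receptor chains was thus different in treated lungs. The ratio of Osmr to Lifr FPKM was 0.041 and 0.0419 in the controls and 1.42 and 0.663 in bleomycin replicates 1 and 2. The control values were nearly equal, and the mean of the treated values was 25.1 times theirs. Relative to Il6st, Osmr went from 0.0313 and 0.0384 to 0.214 and 0.139, whereas Lifr went from 0.761 and 0.916 to 0.151 and 0.209. Lifr was close to Il6st in level in the controls and well below it in treated lungs. The Il6r to Il6st ratio was 0.206 and 0.27 in the controls against 0.132 and 0.119, and that of Il11ra1 to Il6st 0.245 and 0.294 against 0.16 and 0.14. These ratios are given as levels, without a test.

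**Figure D3:**
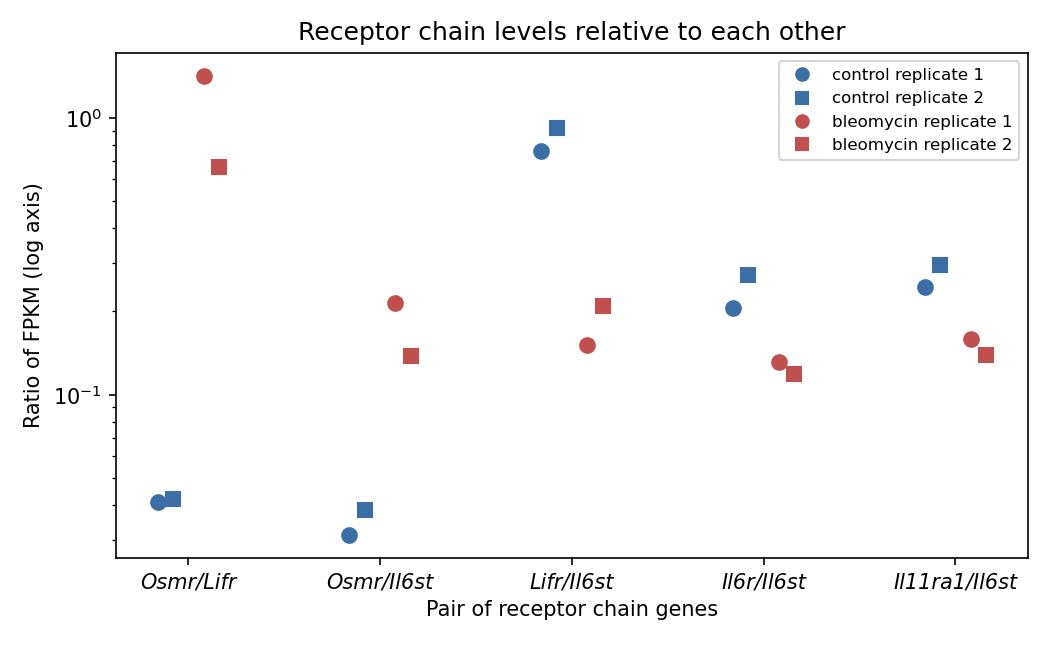
Ratios of FPKM between receptor chain genes (log axis) in each of the 4 libraries, controls in blue and bleomycin in red. The Osmr to Lifr ratio was about 0.041 in both controls and 1.42 and 0.663 in the bleomycin libraries, and the other 4 ratios show which of the chains moved relative to Il6st.

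In the order of levels per length 7 of the 10 members held another position in treated lungs, and Il6st, Stat3 and Socs3 kept theirs. In the controls it was Il6st (118.4 ± 10.01 FPKM), Stat3 (66.4 ± 3.1), Socs3 (45.5 ± 5.5), Il11ra1 (31.8 ± 1.4), Il6r (27.97 ± 2.98), Osmr (4.10 ± 0.25), Osm (0.760 ± 0.014), Lif (0.410 ± 0.028), Il11 (0.160 ± 0.014) and Il6 (0.085 ± 0.035), and no neighbours in that order overlapped. In bleomycin-treated lungs Osmr (26.4 ± 5.6 FPKM) stood above Il11ra1 (22.6 ± 0.04), with overlapping ranges. Lif (2.95 ± 1.73 FPKM), Osm (2.10 ± 0.30) and Il6 (1.66 ± 0.63) formed a run whose neighbours overlapped, and Il11 (0.285 ± 0.007) stood last. The ligand genes stayed low: the 4 together had 1.37 and 1.46 FPKM in the controls and 8.86 and 5.11 FPKM in the treated lungs, below the level of Il6r alone.

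Stat3 (ENSRNOG00000019742), the transcription factor gene of the pathway, had 286 and 303 CPM in the controls and 387 and 372 CPM in the bleomycin libraries. The groups did not overlap. Its 1.29-fold difference, 0.37 ± 0.11 (SE) on the log2 scale, did not pass by edgeR (adjusted p = 0.0767), but it was called by DESeq2 (adjusted p = 0.0295) and by edgeR without bleomycin replicate 2 (adjusted p = 0.0358). These values measure messenger RNA, and the phosphorylated, active form of STAT3 was not measured.

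Socs3 (ENSRNOG00000002946) encodes the inhibitor that STAT3 induces and that blocks gp130 and its kinases. It had 42.8 and 35.8 CPM in the controls and 54.5 and 53.6 CPM in the bleomycin libraries. The treated values were nearly equal and above both controls. The 1.38-fold difference, 0.46 ± 0.12 (SE) on the log2 scale, missed the threshold by edgeR (adjusted p = 0.0587) and passed by DESeq2 (adjusted p = 0.0402). Relative to Stat3, Socs3 was at 0.768 and 0.606 in the controls and at 0.723 and 0.739 in treated lungs on the FPKM scale, so the ranges overlapped.

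Around the members, 76 further genes of the pathway were listed in 7 groups. Of the 69 tested, 20 rose and 5 fell, with a median log2 change of 0.09, read against the 9.27% and 7.44% of all tested genes given above. The counts of each list below are read against the same shares. Those of the other cytokines, other STATs and inhibitors were near them. Il31, Stat4, Mcl1 and Il4ra were not found under these symbols and are not analysed here. Of the rest, Il31ra, Fga and Fgb had too few counts to be tested.

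Of 6 other cytokine genes of the family 1 rose and none fell. Ebi3, a subunit shared by interleukins 27 and 35, was at 1.52 ± 0.47 against 3.58 ± 0.67 CPM (edgeR adjusted p = 0.0733, or 0.0433 by DESeq2). Ctf1, the cardiotrophin 1 gene, was at 9.73 ± 0.01 against 6.25 ± 1.36 CPM (edgeR adjusted p = 0.0991). In RefSeq it overlaps Ctf2, which had at most 4 counts. Reads shared with genes not matched to RefSeq were not examined.

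Of 8 kinase and adaptor genes 2 rose and 1 fell. Jak3, the kinase of lymphoid and myeloid cytokine receptors, rose 1.77-fold, with levels of 27.7 ± 0.2 and 49.04 ± 1.36 CPM (edgeR adjusted p = 0.0147), and Shc1, an adaptor of the RAS pathway, 1.74-fold from 169.6 ± 3.0 to 295 ± 18.1 CPM (edgeR adjusted p = 0.0177). Gab1, a docking adaptor downstream of gp130, fell 1.45-fold, with levels of 38.7 ± 1.8 and 26.6 ± 1.7 CPM (edgeR adjusted p = 0.0357). Jak1, the main kinase of gp130, was nearly equal in all libraries, at 367, 366, 372 and 381 CPM in controls 1 and 2 and bleomycin 1 and 2 (edgeR adjusted p = 0.82). Jak1 overlaps Raver2 in RefSeq, which had at most 1771 counts where Jak1 had at least 12663.

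None of the 5 other STAT genes tested was called by edgeR or DESeq2, and 1 of them had an unadjusted p under 0.05. Stat2 was at 147.7 ± 20.6 CPM in the controls and 119.6 ± 10.9 CPM in treated lungs (edgeR adjusted p = 0.188), and Stat5b at 71.9 ± 6.9 and 61.5 ± 2.9 CPM (edgeR adjusted p = 0.211). The means of both were lower after bleomycin where that of Stat3 was higher. Stat5a (44.7 ± 0.9 against 45.2 ± 1.9 CPM) and Stat6 (174.5 ± 0.8 against 181.1 ± 9.6 CPM) were level, with overlapping groups. These 2 were named after their values were seen. The differences between the STAT genes were not tested.

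Of 14 inhibitor genes 2 rose and none fell. Cish, a SOCS family inhibitor best known downstream of STAT5, was at 19.5 and 22.9 CPM in the controls and 38.4 and 30.6 CPM in bleomycin replicates 1 and 2, a 1.62-fold rise (edgeR adjusted p = 0.0459). Ptpn2, a phosphatase that acts on Janus kinases and STATs, was higher in treated lungs, at 31.7 ± 4.0 against 21.1 ± 1.1 CPM (edgeR adjusted p = 0.0469). Without bleomycin replicate 1 neither was called, with edgeR adjusted p of 0.0795 for Cish and 0.075 for Ptpn2, and Cish was not called by limma on FPKM either (adjusted p = 0.0561). Ptpn6 was at 188.9 ± 27.6 against 144.3 ± 19.5 CPM and Pias1 at 58.9 ± 0.7 against 46.9 ± 6.6 CPM, and neither passed (edgeR adjusted p = 0.147 and 0.129). Socs1, named after its values were seen, was split in the treated lungs, with 10.3 and 4.06 CPM in replicates 1 and 2 against 2.92 and 4.15 CPM in the controls.

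Of 16 tested genes widely described as STAT3 targets 7 rose, 1 fell and 8 were not called, with a median log2 change of 0.39. The IkappaB family gene Bcl3 went from 8.51 and 9.14 to 35.6 and 26.2 CPM, a 3.50-fold rise (edgeR adjusted p = 0.0135), and the growth regulator gene Myc from 24.8 and 25.8 to 47.98 and 51.96 CPM, 1.97-fold (edgeR adjusted p = 0.0137). Both treated lungs were well above both controls for each. Timp1, an inhibitor of metalloproteinases and a classical interleukin 6 and oncostatin M target, went from 23.3 and 30.3 to 390 and 189.9 CPM, 10.8-fold, or 7.05-fold without bleomycin replicate 1. The other members of the list that rose were Junb, Pim1, Birc5 and Batf, from 1.70-fold for Junb to 4.64-fold for Birc5. Birc5 is also a gene of dividing cells. The member that fell was Vegfa, the endothelial growth factor gene, by 1.16 on the log2 scale from 459 ± 47 to 204.8 ± 56.3 CPM. Icam1, an adhesion molecule gene, was at 541.3 ± 8.0 against 377.6 ± 58.3 CPM and did not pass (edgeR adjusted p = 0.0683). Members other than Bcl3, Myc and Timp1 were named after their values were seen. Many signals besides STAT3 act on these genes, and their part was not tested.

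Of 15 tested acute-phase and STAT3-dependent epithelial genes 8 rose, 1 fell and 6 were not called. Serpina3n, a protease inhibitor gene, went from 16.9 and 23.1 to 381 and 249.7 CPM, a 15.7-fold rise (edgeR adjusted p = 0.00992). Reads could be shared with its close relatives among the Serpina3 genes, which was not tested. Lbp, the gene of the lipopolysaccharide binding protein, rose 2.88-fold from 46.4 and 41.5 to 109 and 143.7 CPM. Lcn2, the siderophore-binding lipocalin gene, was the most abundant of the list at 144 ± 53 against 922 ± 159 FPKM, and its 6.38-fold rise lost its call when bleomycin replicate 1 was left out (edgeR adjusted p = 0.0588). The other genes that rose were Cp, Hpx, A2m, Reg3b and Reg3g. A2m, a textbook interleukin 6 response gene of rat liver, had 1333 and 402 counts in bleomycin replicates 1 and 2 and 0 in each control. Reg3b had 309 and 1043 counts against none, and Reg3g 157 and 1109 counts against 0 and 19, so these lectin genes were higher in replicate 2 whereas A2m was higher in replicate 1. Of the 15 tested genes A2m, Reg3b, Reg3g, Orm1 and Hamp passed the filter on low counts only through the treated libraries, 3 of them among the 8 that rose, so the count for this list is a description. Haptoglobin (Hp) and the fibrinogen chain gene Fgg, also acute-phase genes, were level, at 33.8 ± 3.0 against 36.3 ± 1.0 CPM for Hp and 125 ± 25.6 against 125.2 ± 48.5 CPM for Fgg. Serpina1, the alpha-1-antitrypsin gene, fell 3.94-fold from 50.1 ± 0.7 to 12.7 ± 4.0 CPM. Genes of this list other than Serpina3n, Lbp and Lcn2 were named after their values were seen.

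**Figure D4:**
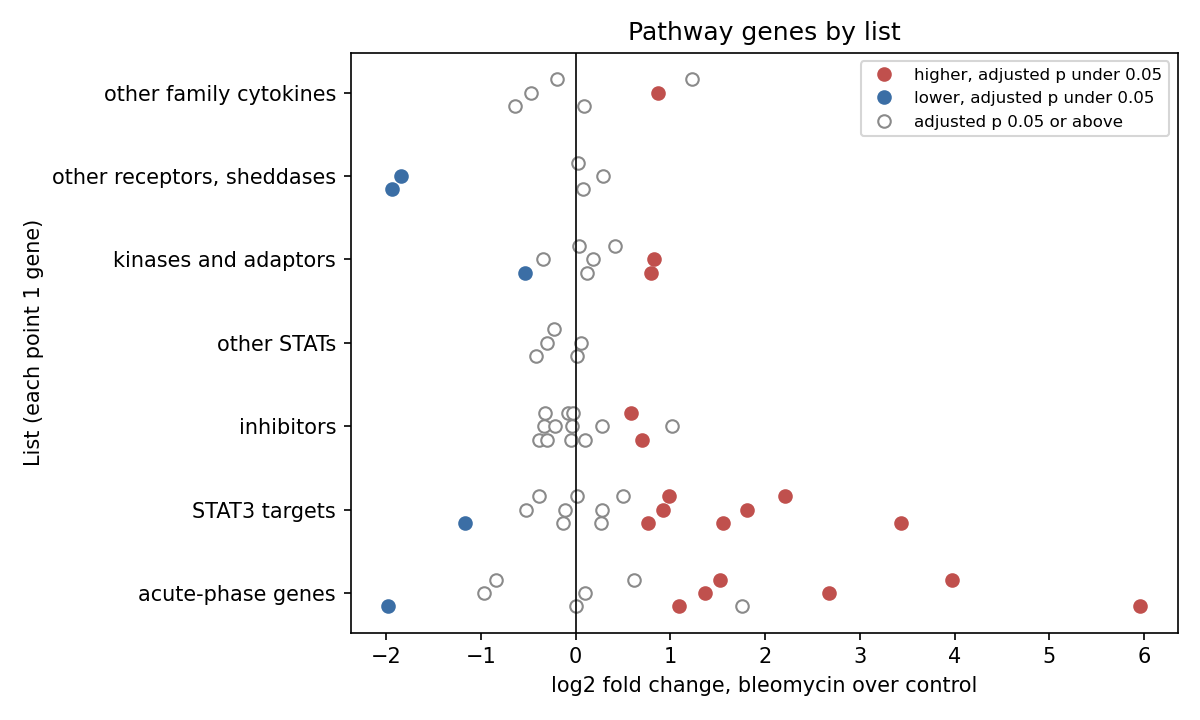
Fitted log2 fold change of each tested pathway gene by list, each point 1 gene; filled points passed at an adjusted p under 0.05. Called rises lie mainly in the lists of STAT3 targets (7 of 16) and acute-phase genes (8 of 15). Of all tested genes 9.27% were called higher and 16.7% in either direction. Among the acute-phase rises A2m and Reg3b have no fitted fold and are not drawn. A2m, Reg3b and Reg3g passed the filter on low counts only through the treated libraries. None of the 5 other STAT genes was called, which is near the share over all tested genes.

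The promoters of Serpina3n and Cish are shown because these genes rose and their windows hold the STAT element TTCNNNGAA, which reads the same on both strands and is marked in capitals. They are RefSeq sequences on GRCr8, chr6:129088142-129088391 and chr8:116850719-116850968, both on the plus strand.
Serpina3n promoter: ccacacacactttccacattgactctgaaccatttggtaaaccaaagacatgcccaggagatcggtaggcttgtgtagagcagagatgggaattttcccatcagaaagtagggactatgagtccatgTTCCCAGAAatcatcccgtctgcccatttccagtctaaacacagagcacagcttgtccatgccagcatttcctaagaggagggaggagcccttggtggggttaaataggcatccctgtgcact
Cish promoter: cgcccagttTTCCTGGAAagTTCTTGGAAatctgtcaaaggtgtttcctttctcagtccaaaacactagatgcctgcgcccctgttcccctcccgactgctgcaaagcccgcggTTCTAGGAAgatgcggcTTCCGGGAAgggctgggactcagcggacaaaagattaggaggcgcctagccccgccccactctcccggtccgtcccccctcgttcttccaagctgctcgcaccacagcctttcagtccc
The Serpina3n window held 1 element, 123 bases before the start site, and the Cish window 4, of which none overlap. Of the called pathway genes with a window 4 of 19 held the element (Batf, Cish, Reg3b and Serpina3n), and of the tested genes that were not called 4 of 31 did (Bcl2l1, Hamp, Icam1 and Socs1), beside 7.67% of all windows. A gene with several windows, such as Bcl2l1, counted if any of them held the element, whereas the 7.67% is a share of single windows. These are counts of letters and were not tested.

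Since the groups did not overlap for any of the 10 members, leaving out 1 library could hardly turn a direction, and none turned. The calls rested on having both controls. Without control replicate 1 edgeR called none of the 10, with 7 at an unadjusted p under 0.05, and without control replicate 2 it called none, with 5 at an unadjusted p under 0.05. The smallest adjusted p among members was then 0.0579 and 0.0524, both for Osmr. The same loss touched all genes, with 13 and 8 called higher and lower without control replicate 1 and 22 and 13 without control replicate 2. Of the 69 pathway genes none was called in either case, with 24 and 29 at an unadjusted p under 0.05.

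**Figure D5:**
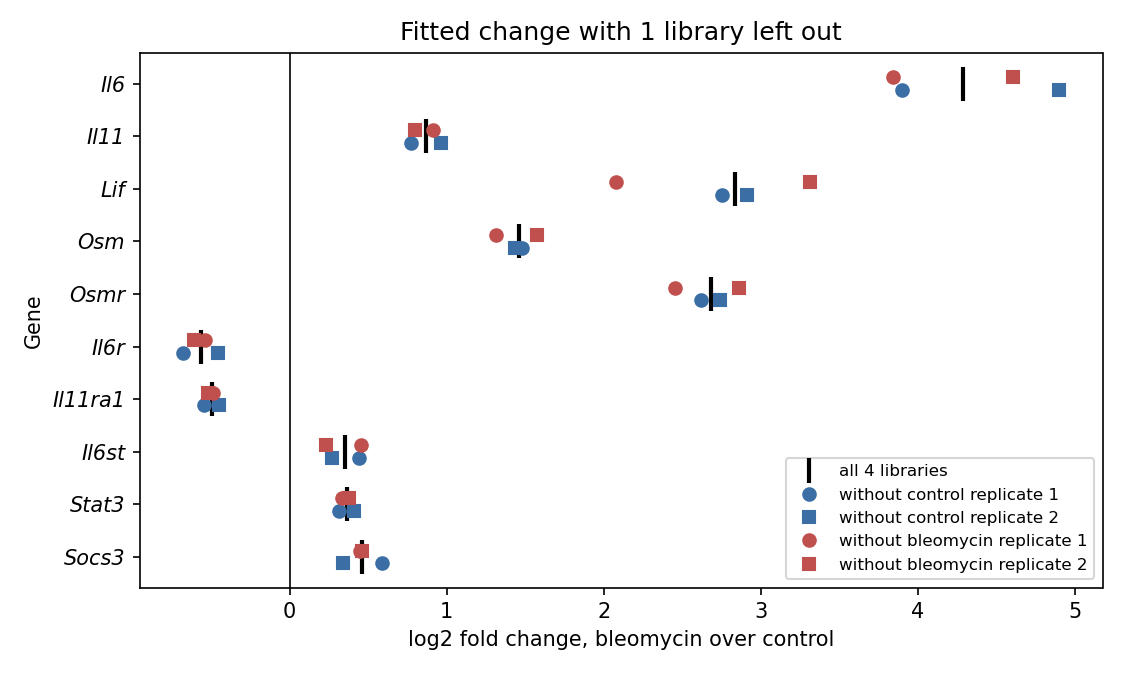
Fitted log2 fold change of each member with all 4 libraries (black bars) and with 1 library left out (blue, a control left out; red, a bleomycin library left out; circles for replicate 1, squares for replicate 2). Lif moved most with the bleomycin libraries, to 2.08 without replicate 1. No member crossed 0, which groups that did not overlap made nearly certain.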

How the data were processed

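Polyadenylated lung RNA was fragmented and reverse transcribed with random primers, per the labels' protocols. The submitters' processing notes name the build Rnor_6.0 and the tools HISAT2, StringTie 1.3.1, fastp 0.18.0, CASAVA 1.8 and DESeq2, without settings. Whole-number counts per gene and FPKM values were deposited by the authors for each library, per the file headers. The counts are not normalized, and the FPKM follow each library's total count.

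Counts were tested with edgeR 4.0.16 (R 4.3.3): filterByExpr with a minimum count of 10 and 15 in total, TMM scaling and the robust quasi-likelihood F test on group, with 2 residual degrees of freedom and a median prior of 3.23. SE is the unshrunk log2 change over the square root of F. DESeq2 1.42.0, limma 3.58.1 on log2(FPKM + 0.1), other scalings, no filter, a replicate block and leaving out each library were the alternatives. Replicates differed by 22.6 (controls) and 96.6 (bleomycin) times the sampling variance, so none was a copy. In a run on simulated counts for 15709 genes, 200 were changed, all drawn from genes of higher level than Il6 and Il11. The bleomycin against control test recovered 72% of genes raised 2-fold and 62% lowered 2-fold. In that single run 26 of 188 calls were unchanged genes, a larger share than the threshold of 0.05 allows for. The adjusted p-values of that run were thus optimistic. The changed share was far below the 16.7% of genes called in the data, so these rates do not carry over to the calls given here.

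The members and lists were chosen with earlier results of these data known. Named genes are the 10 members and, from each list, the 3 with the smallest p and the one with the highest mean FPKM; others are said to be named after their values were seen. Of the genes this rule names, 2 are not reported here. Of 86 listed member and pathway symbols 85 matched RefSeq (GRCr8), used for overlapping genes and promoter sequences. PCR copies are not independent molecules, so intervals cover counting error only.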

Additional observations from a re-analysis of the deposited data

How the results depend on the processing

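All 10 members kept their direction in each of the 10 alternatives, which groups that did not overlap made nearly certain. RLE factors, library totals, no count filter and limma on FPKM left 4 members higher and 2 lower, and DESeq2 added Stat3 and Socs3. With the replicate block 1 member was lower instead of 2, since Il11ra1 had an adjusted p of 0.0513; the numbers give no pairing, as replicate differences in the 2 groups had a correlation of -0.002 across genes. The block also left Gab1, Cish and Ptpn2 uncalled (adjusted p 0.0505, 0.0608 and 0.0661), and called 1225 genes higher and 1025 lower. DESeq2 called 2066 higher and 1810 lower, against 1456 and 1169. Leaving out 1 library gave from 13 to 2569 genes higher and from 8 to 2573 lower, the low end without a control and the high end without bleomycin replicate 2. For the members these ranges were 0 to 5 higher and 0 to 2 lower (1 without bleomycin replicate 1), and for pathway genes 0 to 23 higher and 0 to 11 lower. The cause was not tested. With a control left out, the lone control is assumed to vary like the bleomycin pair. Depth limits Il11, with at most 18 counts in any library, and Il6 in the controls, with at most 5.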

Other observations

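Ligand and receptor genes of the same pair moved by different amounts. Per length, Lif stood at 0.00408 and 0.00422 of Lifr in the controls and at 0.195 and 0.0513 in bleomycin replicates 1 and 2, so Lif was higher relative to its receptor gene in both treated lungs. Osm stood at 0.196 and 0.176 of Osmr in the controls and at 0.0761 and 0.084 in treated lungs, lower in both, since Osmr changed by more than Osm. Osmr was at 0.152 and 0.142 of Il6r in the controls and at 1.63 and 1.17 in treated lungs.

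All 3 mast cell markers were called higher, at 23.25 and 48.97 against 223 and 311 CPM summed, and unlike Il6 and Lif they were higher in bleomycin replicate 2. Of 5 tested lymphocyte markers 2 were called lower and none higher, at 42.6 and 52.4 against 18.4 and 24.7 CPM summed.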
